A study of Mus musculus with 20 samples.

Results

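The Tceal and Bex genes encode small adaptor proteins and lie together on the mouse X chromosome. In plantaris muscle after overload, 10 of them were followed here by name, out of 54532 genes counted: Tceal7, Tceal1, Tceal3, Tceal5, Tceal6, Tceal8, Bex1, Bex2, Bex3 and Bex4. Tceal7 was chosen by its overload values in these same libraries, being about 4 times higher in overloaded than in sham-operated muscle, so its values are given below as a description without a test. This holds for the comparisons with the mimic virus too, since all but MOV mimic against sham mimic use libraries that chose it, and that one asks the same overload question. The other 9 genes were taken as its relatives, and the question was which of them followed it. The mice were male C57BL/6J animals aged 5 months that underwent sham surgery or bilateral mechanical overload (MOV), in which part of the gastrocnemius and soleus is cut away so that the remaining plantaris carries more load. At surgery the left plantaris received a control lentivirus and the right one a lentivirus coding for a miR-1 mimic, each with a TurboGFP reporter and a mouse CMV promoter, which is not restricted to muscle fibres, and not every fibre took up virus. Muscles were taken 10 days later, and RNA-seq gave 5 libraries for each surgery and virus, called sham control and sham mimic, and MOV control and MOV mimic. All animals thus carried a virus in both legs, and no group was free of injection.

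TCEAL proteins are named for their likeness to the elongation factor TFIIS, but they are short, largely unstructured nuclear proteins that act through partners. TCEAL7 is known in muscle as a gene of differentiating and regenerating myoblasts and as a brake on cyclin-dependent kinase activity and on NF-kB signalling. BEX proteins are equally small: BEX1 binds calmodulin and is known from regenerating muscle, BEX3 binds the p75 neurotrophin receptor, and several BEX proteins occupy the substrate pocket of the ubiquitin ligase adaptor FEM1B. The genes arose by duplication in a cluster that also holds the Armcx and Gprasp genes, and the promoters of this cluster are known to share sequence.

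All 10 members lay on chromosome X of GRCm38.p6 in the RefSeq annotation, in the order Tceal6, Bex2, Bex4, Tceal8, Tceal5, Bex1, Tceal7, Bex3, Tceal3 and Tceal1 over 1501.2 kb. Tceal6 lay apart, 855.9 kb before Bex2. Tceal7 (ENSMUSG00000079428, chrX:136224041-136226100, plus strand) and Bex1 (ENSMUSG00000050071, chrX:136213972-136215513, minus strand) pointed away from each other with 8.53 kb between them. Tceal8 (ENSMUSG00000051579) spanned chrX:136168984-136172251 and Tceal5 (ENSMUSG00000054034) chrX:136200948-136203884, both on the minus strand, and Tceal1 (ENSMUSG00000049536) spanned chrX:136707982-136709873 on the plus strand. The start regions of these 5 members are shown because the letters CACGTG, a form of the E-box bound by basic helix-loop-helix factors, recurred in them at or near the annotated start. Each run covers 70 bases before and 30 bases after the RefSeq start, written 5′ to 3′ on the strand of the gene with CACGTG in capitals.
Tceal7, chrX:136223971-136224070, plus strand: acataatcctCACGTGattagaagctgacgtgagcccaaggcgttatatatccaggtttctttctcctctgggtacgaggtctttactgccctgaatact
Bex1, chrX:136215484-136215583, minus strand: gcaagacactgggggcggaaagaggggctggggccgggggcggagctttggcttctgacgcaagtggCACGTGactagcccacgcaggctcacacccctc
Tceal8, chrX:136172222-136172321, minus strand: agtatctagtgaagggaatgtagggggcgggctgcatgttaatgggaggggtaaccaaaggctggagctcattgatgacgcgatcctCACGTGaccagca
Tceal5, chrX:136203855-136203954, minus strand: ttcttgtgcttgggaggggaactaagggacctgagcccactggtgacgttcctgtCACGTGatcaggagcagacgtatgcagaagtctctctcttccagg
Tceal1, chrX:136707912-136708011, plus strand: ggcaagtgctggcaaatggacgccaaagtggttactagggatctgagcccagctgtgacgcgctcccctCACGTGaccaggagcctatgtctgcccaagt

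CACGTG began 60 bases before the start in Tceal7, 15 bases before it in Tceal5, 3 bases before it in Bex1, 1 base before it in Tceal1 and at base 18 of the transcript in Tceal8. Over windows of 300 bases (250 before and 50 after each RefSeq start, both strands), CACGTG was in 11 of the 14 windows of the members, from every member but Bex2, against 7.15% of the 32851 windows of all genes. CGTGAC, which can overlap CACGTG, was in 10 of the 14 and in 8.22% of all windows. GGGCGG was in 8 of the 14 (35.7% of all windows), CCAAT in 4 (37.4%), CATTCC in 4 (14.7%), CAGCTG in 2 (16.3%), CACCTG in 1 (20.2%) and TATAAA in 1 (13.6%). No member held TGACGTCA (1.79%), TTCCNGGAA (1.15%) or the single fixed string searched for MEF2 (0.164%) in its windows. Other forms of the MEF2 site were not searched, so their absence is not shown. These 11 strings were partly chosen after matches were seen, the windows of all genes were not matched for base composition, and related promoters are not independent: those of Bex1 and Bex4 shared an unbroken run of 271 bases and those of Bex2 and Bex3 one of 162, against at most 18 for any other pair. CACGTG stood both in Bex1 and in Tceal1, the relatives most and least like Tceal7 in level.

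Library totals ran from 12036360 to 23056525 counts. Transcripts of skeletal muscle fibres were abundant. The summed level of 10 fibre markers (Acta1, Ckm, adult myosins and others) was 65212 to 172397 CPM over the libraries (counts scaled to library size, with TMM normalisation). The libraries thus held skeletal muscle, and these markers were not used to tell plantaris from other limb muscles. A list of 18 regeneration and myogenic genes was summed. It held myogenic regulators, fusion factors, developmental myosins, Ncam1, Cdh15, Chrna1, Chrng, Mest, Igf2, H19, Dlk1 and Meg3. The summed level was 5999 to 9962 CPM in the MOV control libraries, and in the sham control libraries it reached from 842 to 5687. Single genes did not all split so. MOV control 5 held 102 CPM of Myh3, 128 of Myh8 and 13.1 of Myog. These lay inside the sham control ranges of 10.9 to 329, 10.2 to 283 and 3.69 to 28.2 CPM. In the sham mimic libraries the sum was 758, 7013, 1441, 1917 and 2568 CPM (1 to 5), and in MOV mimic 5210, 3006, 5498, 7352 and 785 CPM. Sham mimic 2 thus lay in the range of the MOV control libraries, and MOV mimic 1, 2, 3 and 5 lay under all of them. The library labelled sham mimic 2 had the highest sum of the sham groups and the library labelled MOV mimic 5 the lowest of the MOV groups, so both went against their surgery labels in these genes. The summed Armcx and Gprasp genes and the summed cell cycle and NF-kB genes, listed below, went the same way. Sham mimic 2 was highest of its group there (140 and 424 CPM), and MOV mimic 5 lowest of its group (102 and 199). Sham control reached 128 and 347 CPM in these sums, and MOV control began at 134 and 275. For TFIIS genes and BEX partner genes, lower in median in MOV control, sham mimic 2 was lowest and MOV mimic 5 highest of their groups. In the summed endothelial and mural markers both stayed with their labels. That sum was 597 to 743 CPM in sham control and 309 to 607 in MOV control, and it was 689 to 881 in sham mimic, with sham mimic 2 the highest, and 445 to 508 in MOV mimic. An exchange of labels would change what each comparison with a mimic group means. The comparisons with a mimic group are therefore also given without these 2 libraries. In bulk tissue, a lower number of cells of one type and less RNA per cell cannot be told apart.

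Tceal7 was the most abundant member per exonic length in each group. Its level was 59.5 ± 30.4 CPM per kilobase in sham control and 230 ± 67.6 in MOV control (mean ± SD, n = 5). In sham control it was followed by Tceal5 (21.3 ± 8.85 CPM per kilobase), Bex1 (12.03 ± 4.11), Tceal8 (9.83 ± 3.51), Bex3 (4.07 ± 2.13), Tceal1 (2.71 ± 0.217), Tceal3 (0.415 ± 0.105) and Tceal6 (0.195 ± 0.170). Read library by library, Tceal7 lay above Tceal5, Tceal8 above Bex3, and Tceal1 above Tceal3 in 5 of 5 sham control libraries. Tceal5 lay above Bex1, Bex1 above Tceal8, Bex3 above Tceal1, and Tceal3 above Tceal6 in 4 of 5, and the mean ± SD ranges of these last pairs met. In MOV control the range of Tceal7 stood clear of the rest, and Bex1 (30.3 ± 17.2 CPM per kilobase) and Tceal5 (30.6 ± 14.8) held nearly equal levels. Bex2 and Bex4 were close to silent, with 2 and 6 counts in all 20 libraries, and Tceal6 had 113, between 0 and 18 a library. Bex2 and Bex4 stayed at or under 3 counts in every library, the floor used here, so no fold is given for them. The filter on low counts (edgeR's filterByExpr) was passed by 7 of the 10 members, and not by Tceal6, Bex2 and Bex4.

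**Figure D1:**
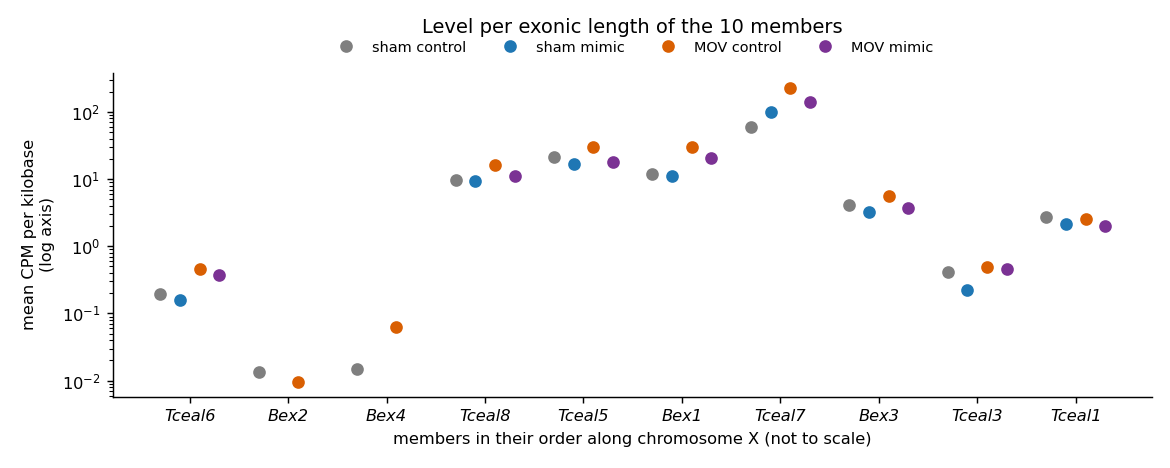
Mean level of each member in CPM per kilobase of exon (log axis) in the 4 groups, with members in chromosome order; groups at 0 have no point, and the spread is in the text. Tceal7 stands highest in each group, at 59.5 in sham control and 230 in MOV control, and Bex2 and Bex4 lie lowest.

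Some members share sequence, so their reads may not be fully separable. Of all 50-base stretches in its transcripts (GENCODE M1 sequences), Tceal6 shared 45.3% with another member, Tceal3 30.2% and Bex1 29.5% (with Bex4). The share was 25.8% for Bex4, 25.4% for Tceal5, 21.3% for Bex2 and 12.2% for Bex3. Tceal7, Tceal8 and Tceal1 shared none. These are shares of sequence, and the part of the counts that they leave in doubt was not measured. Bex1 and Tceal7 have a further limit. In that annotation a transcript of Tceal7 covers 223 exonic bases of Bex1 on the opposite strand, and since the strand setting of the counting is not given in the sources used here, reads from that stretch cannot be told apart. The counts of both genes did not keep one ratio: Tceal7 CPM divided by Bex1 CPM ran from 2.77 in MOV mimic 5 to 18.9 in sham mimic 2.

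The first comparison asked what overload did under the control virus. Tceal7 was 28.9, 79.0, 123, 85.9 and 44.7 CPM in sham control 1 to 5 and 308, 198, 262, 408 and 225 CPM in MOV control 1 to 5. Every MOV library lay above every sham library. The group means were 72.4 ± 37.0 and 280 ± 82.3 CPM (SD, n = 5), a fold change of 3.99 (log2 2.00), which is the value that chose the gene. The share of Tceal7 in the summed CPM of the 10 members was 34.8 to 51.8% in sham control and 61.3 to 71.2% in MOV control. Groups without overlap and higher in MOV were seen in 1.94% of all genes tested and in 0 of the 6 relatives tested, while the separation of Tceal7 belongs to the values that chose it.

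Bex1, the calmodulin-binding member next to Tceal7, came closest to following it. Its level was 9.05, 13.5, 22.3, 14.1 and 12.4 CPM in sham control 1 to 5. In MOV control 1 to 5 it was 30.4, 19.5, 26.8, 71.4 and 31.4 CPM. The groups overlapped by a single pair of libraries, since MOV control 2 lay under sham control 3, and the MOV library was the higher one in 24 of 25 pairs. The log2 fold change was 1.37 ± 0.33 (SE), or 2.58-fold, with an adjusted p of 0.067 in edgeR's quasi-likelihood test over 14974 genes, so the call was not made. It was called by DESeq2 (adjusted p = 0.0034) and in edgeR when no low-count filter was applied (0.017). One library decided the edgeR call: without sham control 3 the log2 fold change was 1.58 with an adjusted p of 0.033, and without MOV control 4, the highest library, it was 0.94.

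None of the 6 relatives tested was called by edgeR in this comparison, where 0.00668% of all genes were called, that is 1 gene of 14974 (Nos1, the neuronal nitric oxide synthase, log2 fold change -1.70, adjusted p = 0.046, named after its values were seen). The unadjusted p was under 0.05 for 2726 genes. Under DESeq2 the calls came to 913 genes, 6.1% of those tested, of which 392 (2.62%) were higher in MOV, and 1 of the 6 relatives, Bex1, was among them. The edgeR count depended on single libraries: it was 426 genes without sham control 3, 318 without MOV control 5, and 0 when any one of sham control 2, 4 or 5 or MOV control 1 or 2 was left out.

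Tceal8 was the next relative. It measured 11.5, 24.1, 35.3, 30.9 and 24.2 CPM in sham control 1 to 5 and 47.1, 42.0, 39.2, 49.2 and 30.1 CPM in MOV control 1 to 5. MOV control 5 alone lay among the sham libraries, under both sham control 3 and 4, so that 23 of 25 pairs were higher in MOV. Its log2 fold change was 0.77 ± 0.25 (SE) with an interval of 0.29 to 1.25, and the adjusted p was 0.13 in edgeR and 0.057 in DESeq2. Sham control 1, the lowest library for Tceal8, was also the lowest of its group for the summed leukocyte markers (225 CPM) and the summed fibroblast markers (2111 CPM), and the part of this in the result was not tested. Without it the log2 fold change was 0.59.

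Tceal5 varied too much within groups to be placed. It was 22.9, 34.3, 40.9, 25.1 and 11.7 CPM in sham control 1 to 5 and 31.5, 20.02, 27.6, 46.7 and 67.2 CPM in MOV control 1 to 5. MOV control 4 and 5 stood above all sham libraries and the other three lay among them. The log2 fold change was 0.54 ± 0.34 (SE, adjusted p = 0.43, edgeR), and it was 0.27 without MOV control 5.

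The less abundant relatives differed less than their spread. Bex3, the partner of the p75 receptor, was 3.93 ± 2.06 CPM in sham control and 5.33 ± 1.07 in MOV control (log2 fold change 0.48 ± 0.35 SE, adjusted p = 0.50, edgeR). Its log2 fold change was 0.28 without sham control 1 and 0.71 without sham control 3. Tceal3 was 1.47 ± 0.37 and 1.75 ± 0.34 CPM (log2 fold change 0.29 ± 0.32 SE, adjusted p = 0.67, edgeR). Tceal1, a transcriptional modulator and the last member in the order above, was 7.69, 7.62, 8.12, 7.99 and 6.58 CPM in sham control 1 to 5 and 6.87, 3.01, 6.69, 10.9 and 7.85 CPM in MOV control 1 to 5. The sham libraries of Tceal1 were tightly grouped and the MOV libraries lay on both sides of them, with a log2 fold change of -0.08 ± 0.27 (SE) and an interval of -0.61 to 0.46. Tceal6 had 0 to 7 counts a library in sham control and 0 to 18 in MOV control, too few for a test under the filter. Of the 6 relatives tested, 5 had a log2 fold change over 0 and their median was 0.51, against 54.2% and a median of 0.04 for all genes.

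**Figure D2:**
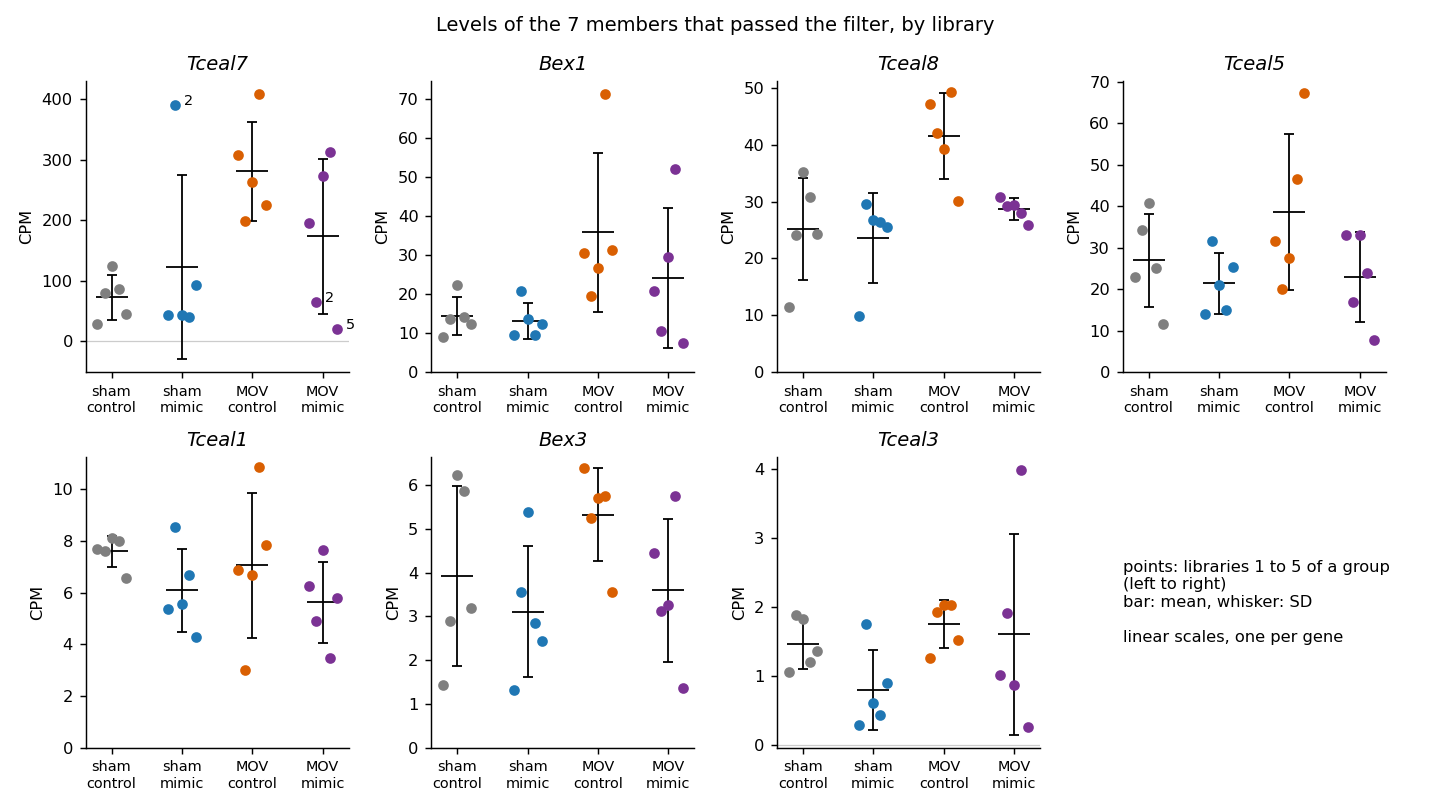
CPM of the 7 members that passed the filter, one panel per gene with its own linear scale; points are libraries 1 to 5 of a group from left to right, the bar is the mean and the whisker the SD. The numbers mark sham mimic 2 (390 CPM of Tceal7), MOV mimic 2 (64.5 CPM) and MOV mimic 5 (20.3 CPM), of which the first lies in the range of the MOV control libraries and the others lie under it.

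The same overload was compared under the mimic virus. Tceal7 was 43.7, 390, 43.7, 40.5 and 93.6 CPM in sham mimic 1 to 5 and 195, 64.5, 274, 312 and 20.3 CPM in MOV mimic 1 to 5. The groups overlapped through sham mimic 2, the highest of all 10 libraries, through MOV mimic 5, the lowest, and through MOV mimic 2, which lay under sham mimic 5. The means were 122 ± 151 and 173 ± 127 CPM, and the log2 fold change was 0.55. It was 1.97 with sham mimic 2 and MOV mimic 5 both left out, a choice made after seeing the data, and 1.68 without sham mimic 2 alone. Among all genes, groups without overlap and higher in MOV mimic made up 0.811%, and no member was among them.

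After Tceal3, the least abundant member tested, Bex1 had the largest fold change of the relatives. It was 9.40, 20.7, 13.6, 9.49 and 12.3 CPM in sham mimic 1 to 5 and 20.9, 10.4, 29.5, 52.1 and 7.34 CPM in MOV mimic 1 to 5. Sham mimic 2 was the highest sham library and MOV mimic 5 the lowest MOV library, as for Tceal7. The log2 fold change was 0.92 ± 0.45 (SE, adjusted p = 0.40, edgeR), and 1.37 ± 0.40 (adjusted p = 0.090) without those 2 libraries. MOV mimic 4 carried part of it, since the log2 fold change was 0.41 without that library.

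No relative was called in this comparison, in which edgeR called 0 of 14918 genes (0%), 1997 had an unadjusted p under 0.05 and DESeq2 called 221 (1.48%). Tceal8 had a log2 fold change of 0.32 ± 0.23 (SE), Bex3 of 0.25 ± 0.44, Tceal5 of 0.15 ± 0.35 and Tceal1 of -0.08 ± 0.27. For Tceal8 the log2 fold change was 0.12 without sham mimic 1. For Bex3 it ran from 0.006 without MOV mimic 4 to 0.53 without sham mimic 3. Tceal3, at 0.80 ± 0.58 CPM in sham mimic and 1.61 ± 1.45 in MOV mimic, had one of 1.05 ± 0.72 (SE, adjusted p = 0.55, edgeR), which was 0.39 without MOV mimic 4. With sham mimic 2 and MOV mimic 5 left out, edgeR called 292 genes and still none of the relatives, with log2 fold changes of 1.82 for Tceal3, 0.55 for Tceal5, 0.51 for Bex3, 0.45 for Tceal8 and 0.06 for Tceal1. The edgeR count was 101 genes without MOV mimic 5 alone. The 2 overload comparisons share no library, but by the study's methods the control and mimic muscles were the left and right legs of the same mice.

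In overloaded muscle, the mimic was compared with the control virus, with the same MOV control libraries whose high values chose Tceal7. All 6 relatives tested had a log2 fold change under 0, and none was called by edgeR, which called 0 of 15220 genes (0%) with 641 at an unadjusted p under 0.05. DESeq2 called 3 genes (0.0197%), none of them a relative. With a block on equal replicate numbers, which are not established as pairs, DESeq2 called 127 genes, again without a relative. Groups without overlap and lower in MOV mimic made up 0.401% of all genes, and no relative was among them. Of all genes, 49.3% had a log2 fold change over 0, and the median of the 6 relatives was -0.55, beside -0.01 for all genes. Tceal8 was the most regular. Its MOV mimic libraries 1 to 5 measured 30.8, 29.3, 29.4, 27.9 and 25.9 CPM, a mean of 28.7 ± 1.87 (SD), against 41.5 ± 7.53 in MOV control. MOV control 5 (30.1 CPM) was the 1 control library that reached into this narrow band. The log2 fold change was -0.54 ± 0.15 (SE, interval -0.83 to -0.24), with an unadjusted p of 0.00361 and an adjusted p of 0.999 (edgeR quasi-likelihood test). The log2 fold change stayed between -0.64 and -0.47 when any one library was left out.

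The other members spread more widely. Tceal7, not tested here, had a log2 fold change of -0.69, which was -0.40 without MOV mimic 5 and -1.02 without MOV mimic 4. Tceal5 had one of -0.73 ± 0.38 (SE), Bex1 of -0.57 ± 0.47, Bex3 of -0.57 ± 0.37, Tceal1 of -0.32 ± 0.33 and Tceal3 of -0.12 ± 0.62. Single libraries set much of these values. Bex1 ran from -1.07 without MOV mimic 4 to -0.17 without MOV control 4, Tceal5 was -0.46 without MOV control 5, and Tceal1 ran from -0.52 without MOV control 2 to -0.12 without MOV control 4. Without MOV mimic 5 the log2 fold change was -0.51 for Tceal5, -0.50 for Tceal8, -0.36 for Bex3, -0.34 for Bex1, -0.33 for Tceal1 and 0.15 for Tceal3, whose sign also turned when MOV mimic 1 or 3 was left out. Several marker lists leaned to one side in the same libraries, with no gene called in any of them by edgeR or DESeq2. The regeneration genes had 2 of 18 log2 fold changes over 0 (median -0.37), the nerve and Schwann cell markers 1 of 6 (median -0.30) and the muscle fibre markers 2 of 10 (median -0.16), the direction of the members. Leukocyte markers had 10 of 10 over 0 (median 0.50), with summed levels of 463 to 917 CPM in MOV mimic and 232 to 801 in MOV control, and tendon markers had 9 of 10 over 0 (median 0.34). The part of these lists in the members' values was not tested.

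In sham muscle the mimic was set against the control virus in the same way. No relative was called, with 0 of 14746 genes (0%) called by edgeR and by DESeq2 and 254 genes at an unadjusted p under 0.05 in edgeR. Tceal7, not tested here either, had a log2 fold change of 0.76, which was -0.38 without sham mimic 2. The 6 relatives ran from -0.88 ± 0.45 (SE) for Tceal3 to -0.10 ± 0.31 for Tceal8. Tceal3, at 0.294, 1.75, 0.609, 0.446 and 0.898 CPM in sham mimic 1 to 5, rested on 4 to 30 counts a library. Its adjusted p was 1.00 in edgeR. Bex1 (-0.13 ± 0.26) and Tceal8 had intervals of -0.64 to 0.39 and -0.70 to 0.51. Without sham mimic 2 the log2 fold change was -1.37 for Tceal3, -0.52 for Tceal5, -0.47 for Tceal1, -0.39 for Bex3, -0.35 for Bex1 and -0.18 for Tceal8.

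Whether the overload difference itself differed between viruses was tested by the interaction over 20 libraries. None of the 6 relatives was called, and edgeR called 0 of 16166 genes (0%), with 426 at an unadjusted p under 0.05 and 1 called by DESeq2 (0.00619%). The value of Tceal7, which contains the difference that chose it and has no test, was -1.45 on the log2 scale. It was -0.30 without sham mimic 2 and -0.02 with MOV mimic 5 left out as well. Tceal8 had -0.45 ± 0.35 (SE), Bex1 -0.44 ± 0.60, Tceal5 -0.39 ± 0.53, Bex3 -0.23 ± 0.57, Tceal1 -0.01 ± 0.38 and Tceal3 0.76 ± 0.78. Bex1 ran from -0.95 without MOV mimic 4 to -0.04 without MOV control 4. Tceal5 was -0.11 without MOV control 5, Tceal8 -0.26 without sham control 1 and Tceal3 0.10 without MOV mimic 4. With sham mimic 2 and MOV mimic 5 both left out, Tceal3 had 1.53, Tceal8 -0.31, and Tceal1, Tceal5, Bex1 and Bex3 between 0.01 and 0.15. A difference between the viruses was not resolved for any relative.

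**Figure D3:**
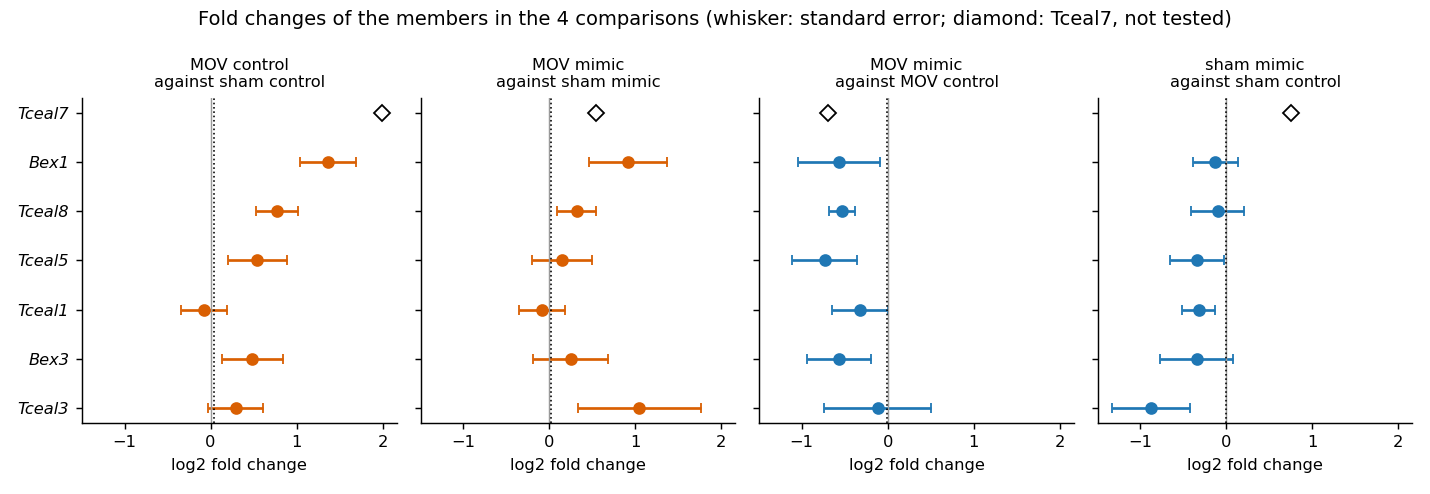
Log2 fold change (x axis) of the 7 members in the 4 comparisons; circles carry their standard error, open diamonds are the values of Tceal7, which are not tested, and the dotted line is the median of all genes. Under the control virus Tceal7 (2.00), Bex1 (1.37) and Tceal8 (0.77) stand furthest to the right, and all 7 members lie left of 0 in MOV mimic against MOV control.

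The likeness of the members was then described over the 20 libraries, which share their group structure, depth and normalisation. Pearson's r of log2 CPM with Tceal7 was 0.896 for Bex1, which placed it at rank 61 of 16165 genes, and 0.846 after group means were removed (rank 88). For Tceal5 it was 0.729, for Bex3 0.681, for Tceal3 0.666, for Tceal8 0.656 and for Tceal1 0.121. The median over all genes was -0.0181, and 1.52% of genes had an r over 0.8. Bex1 was thus the 1 member above that level. Within groups the r of Tceal8 was 0.460, whereas that of Tceal5 was 0.734. Tceal8 and Bex3 tracked each other (r = 0.810, and 0.782 within groups), while Tceal1 had an r between -0.0343 and 0.447 with every other member tested. Without sham mimic 2 and MOV mimic 5, the r with Tceal7 was 0.919 for Bex1, 0.732 for Tceal8, 0.658 for Tceal5, 0.652 for Bex3, 0.573 for Tceal3 and 0.0322 for Tceal1, so that Tceal8 came after Bex1 and the order of the others held.

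**Figure D4:**
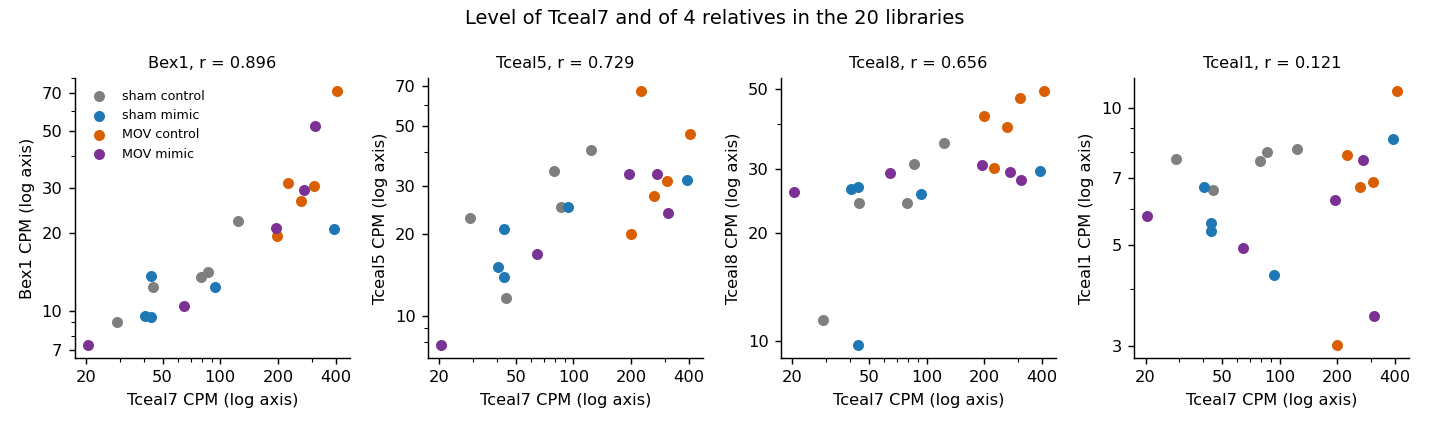
CPM of Bex1, Tceal5, Tceal8 and Tceal1 (y) against Tceal7 (x) in the 20 libraries, log axes, coloured by group; r is Pearson's r of log2 CPM. Bex1 lines up with Tceal7 across the groups (0.896), and Tceal1 shows no such order (0.121).

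The 5 genes outside the family whose level was most like that of Tceal7 were B3galt2, a galactosyltransferase (r = 0.962), Dhrs7, a short-chain dehydrogenase (0.961), Casq2, the slow-fibre and cardiac calsequestrin (0.955), Camk2d, a calcium and calmodulin-dependent kinase (0.955), and Csrp3, the muscle LIM protein (0.951). Their r within groups was 0.936 to 0.945. Csrp3 measured 328 ± 129 CPM in sham control and 663 ± 283 in MOV control, and Casq2 71.6 ± 39.1 and 185 ± 81.8 (SD, n = 5). In sham mimic their highest values were 751 CPM for Csrp3 and 292 for Casq2, and in MOV mimic their lowest were 169 and 22.5. These genes were picked by their likeness over all 20 libraries, mimic groups included, so a spread like that of Tceal7 follows from the choice.

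Other genes tied to the family were read as lists, each by its count and median in MOV control against sham control. Of the 2 further family members counted, Tceal9 was tested, with 33.3 ± 10.8 CPM in sham control and 41.6 ± 1.94 in MOV control (log2 fold change 0.37), and Bex6 had 0 to 3 counts a library in both groups. The 9 Armcx and Gprasp genes of the same cluster (Bhlhb9 included) had 7 log2 fold changes over 0 and a median of 0.39, beside 0.04 for all genes. The 5 TFIIS genes had 2 of 5 over 0 (median -0.11), and 16 BEX partners and FEM1B ligase genes had 6 of 16 over 0 (median -0.06). Among 10 cell cycle and NF-kB genes, listed for the known roles of TCEAL7 and not as its proven targets, 6 were over 0, with a median of 0.33. No gene of these lists was called by edgeR. DESeq2 called 4 of them, named here after their values were seen: Armcx4 (log2 fold change 0.72 in edgeR) and the cell cycle genes Cdkn1a (1.61) and Rb1 (0.87) were higher in MOV control, and the TFIIS gene Tcea3 (-0.58) was lower.

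In the regeneration list edgeR called no gene after overload, and most log2 fold changes had the sign of that of Tceal7. Of 18 myogenic and regeneration genes, 17 were over 0 under the control virus with a median of 1.18, all but Dlk1 (-0.33), and 16 were over 0 under the mimic virus with a median of 0.61, all but Dlk1 (-0.21) and Cdh15 (-0.20). The unadjusted p was under 0.05 for 6 of them under the control virus and 2 under the mimic virus. Of all genes tested, 54.2% were over 0 under the control virus and 51.8% under the mimic virus. DESeq2 called 2.62% of all genes higher under the control virus, and 1.48% in either direction under the mimic virus. In the list DESeq2 called 5 under the control virus, all higher in MOV, and 0 under the mimic virus. They were Pax7, the satellite cell factor (log2 fold change 1.17 in edgeR), Ncam1, an adhesion molecule (1.44), Chrna1, an acetylcholine receptor subunit (1.27), Igf2, a growth factor (2.23), and the imprinted RNA H19 (1.41). For markers of other cells the median under the control virus was -0.33 for leukocytes, -0.32 for fibroblasts, -0.35 for endothelial and mural cells, 0.05 for nerve and Schwann cells, -0.35 for tendon and 0.04 for muscle fibres, with none called by edgeR. DESeq2 called 7 of these markers, all lower in MOV control: Myh4 of the fibre list, Gsn of the fibroblast list, Kdr, Rgs5 and Myh11 of the endothelial and mural list, and Chad and Tppp3 of the tendon list. Under the mimic virus, leukocyte markers had 8 of 9 log2 fold changes over 0 (median 0.44) and tendon markers 7 of 10 (median 0.21), while the median was -0.14 for fibroblasts, -0.35 for endothelial and mural cells, -0.28 for nerve and Schwann cells and -0.36 for muscle fibres. There edgeR called none, and DESeq2 called Gsn, Cdh5, Rgs5 and Chad, all lower in MOV mimic. The summed regeneration list was highest in MOV control 4 (9962 CPM), the library that was also highest for Tceal7, Bex1, Tceal8 and Tceal1. The part of regeneration in the values of the members was not tested.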

How the data were processed

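Plantaris RNA was measured by RNA-seq in 20 libraries, 5 for each surgery and virus, as the labels give them. The authors trimmed reads (Trim Galore 0.6.10 with Cutadapt 4.4), checked them with FastQC 0.11.9, aligned them to GRCm38 with HISAT2 2.0.5 and deposited raw counts per Ensembl gene from featureCounts 1.5.0-p3. The annotation release and strand setting are not given in the sources used here, and the kit named in the labels is not described as directional, so overlapping genes on opposite strands may share reads.

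All 54532 counted genes were used, with symbols matched for 32640. Counts were tested with edgeR 4.0.16 in R 4.3.3 (TMM, filterByExpr, quasi-likelihood F-test, two-sided, Benjamini-Hochberg adjustment over all genes tested, threshold 0.05), on the 10 libraries of a comparison or on all 20 for the interaction. Standard errors were taken as the log2 fold change divided by the square root of F. Approximate 95% intervals were built from them with a normal quantile, so they are narrower than the F-test allows. For Bex1 in MOV mimic against sham mimic such an interval was 0.037 to 1.80, while the unadjusted p of the F-test was 0.062. DESeq2 1.42.0, its size factors, other filters, a replicate block, a fit on all libraries and the removal of each library were alternatives, and the scripts were tested on simulated counts. Correlations used log2 CPM with a prior count of 2. Totals were 12036360 to 23056525 counts, and low counts limit Tceal3, Tceal6, Bex2 and Bex4. For Tceal7 the spread between libraries was the limit, at 122 ± 151 CPM in sham mimic (SD, n = 5). No 2 libraries of a group agreed within counting noise (chi-square per gene at least 13.9 over 40 pairs). The labels do not say which libraries came from 1 mouse, and p-values set group differences against the spread between these libraries. By the study's methods the control and mimic muscles came from the same mice, and the main tests did not pair them.

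The members and the gene lists were chosen with earlier results of these data known, and Armc10, which is not on chromosome X, was taken out of the Armcx and Gprasp list after its values were seen. Genes of the other lists were to be named if edgeR called them in both overload comparisons, which it did for none, and the 5 genes most like Tceal7 were named. Nos1, Dlk1, Cdh15, Tceal9, Bex6 and the list genes that DESeq2 called were named outside this rule, after their values were seen. Lengths and shared stretches came from GENCODE M1, positions and start windows from RefSeq on GRCm38.p6, which held windows for all 10 members.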

Additional observations from a re-analysis of the deposited data

Results flagged for a closer look

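Within groups of 5 libraries, 3 values of single members stood far from the other 4 by Dixon's ratio (critical value 0.71). Over 32 groups of values examined, chance alone marks about 1 in 20. Tceal7 was 390 CPM in sham mimic 2, far above the other sham mimic libraries (ratio 0.848). Tceal8 was 9.77 CPM in sham mimic 1, far below the others (0.796), in a library that was also lowest of its group for the leukocyte and fibroblast marker sums (226 and 2560 CPM). Bex1 was 71.4 CPM in MOV control 4, far above the others (0.771), in the library with the highest regeneration sum (9962 CPM). The part of these sums in the values was not tested.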

How the results depend on the processing

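Of the 6 to 9 relatives, the number called in MOV control against sham control was 0 in edgeR and 1 (Bex1) under DESeq2, without a filter on low counts and under DESeq2 with the replicate block, and it ran from 0 to 1 when each library was left out, 1 being without sham control 3. In the other comparisons it stayed 0 under every alternative run. Over all genes the calls in that comparison were 388 without a filter, 163 with at least 10 counts in total, 36 with all 20 libraries in the fit and 722 under DESeq2 with the block. In MOV mimic against sham mimic they were 1 without a filter, 3 with all 20 libraries and 116 under DESeq2 with the block, and that block gave 127 in MOV mimic against MOV control and 5 in the interaction. Some log2 fold changes turned direction, and the cause was not tested. With libraries left out in turn, the log2 fold change of Tceal1 ran from -0.30 to 0.12 (MOV control against sham control), from -0.22 to 0.065 (MOV mimic against sham mimic) and from -0.20 to 0.21 (interaction), that of Tceal5 from -0.033 to 0.36 (MOV mimic against sham mimic), and that of Tceal3 from -0.77 to 0.15 (MOV mimic against MOV control). In sham mimic against sham control it ran from -0.38 to 1.06 for Tceal7, from -0.28 to 0.093 for Tceal8 and from -0.35 to 0.11 for Bex1, and the interaction of Bex3 ran from -0.46 to 0.048. The interaction of Tceal1 was 0.0089 under DESeq2, 0.0070 with DESeq2 size factors, 0.097 in edgeR with the replicate block and 0.115 in DESeq2 with it. With sham mimic 2 and MOV mimic 5 both left out, the interaction was 0.145 for Tceal1, 0.013 for Tceal5, 0.015 for Bex1 and 0.030 for Bex3, and Tceal1 in MOV mimic against sham mimic was 0.059. Equal numbers did not establish pairs. The deviations of equally numbered libraries correlated at 0.0101 to 0.847 in sham (mean 0.328) and at 0.0787 to 0.466 in MOV (mean 0.285). In each surgery 4 of these 5 correlations were over 0.1. In sham 3 of 10 libraries, and in MOV 5 of 10, correlated best with their own number. Under the block, the log2 fold change of Tceal7 was -1.14 in MOV mimic against MOV control, 0.27 in sham mimic against sham control and 0.86 in MOV mimic against sham mimic, and that of Tceal3 was -0.53 in MOV mimic against MOV control. The block in edgeR called 0 relatives in each comparison, and the smallest adjusted p of a relative in MOV mimic against MOV control was 0.39 (Tceal8). Genes at or under 3 counts a library, here Bex2 and Bex4, were beyond what this depth can resolve.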
